A study of Mus musculus with 15 samples.

Results

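The genes described here are 9 genes of the PPARα and fatty acid oxidation pathway: Ppara, Fabp1, Cpt1a, Acadm, Acadl, Acaa2, Acaa1b, Pdk4 and Fgf21. They were chosen by symbol, and all 9 are among the 24411 symbols listed in the count files. All 9 also passed the filter on low counts, which kept 14098 genes. Their messenger RNA was read by polyA RNA sequencing of fresh frozen liver from male FVB/NJ mice in 5 groups of 3 libraries each. CTNNB1_NFE2L2_MET carried S45Y-CTNNB1, G31A-NFE2L2 and hMET (human MET). CTNNB1_MET carried S45Y-CTNNB1 and hMET, CTNNB1_NFE2L2 carried S45Y-CTNNB1 and G31A-NFE2L2, and NFE2L2_MET carried G31A-NFE2L2 and hMET. WT was wild-type FVB liver. CTNNB1 encodes β-catenin, the effector of Wnt signalling, NFE2L2 encodes NRF2, a regulator of antioxidant and detoxification genes, and the MET protein binds hepatocyte growth factor at the cell surface. The labels give neither the vector, promoter or delivery of the transgenes, nor the age of the mice, the time of day or feeding at harvest, nor whether a piece of liver held tumour. Nothing in the labels says that the 3 libraries of a group are separate animals, and p-values then cover only the spread among libraries, which may be technical.

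PPARα is a nuclear receptor of the liver that binds fatty acids and their derivatives. Paired with a retinoid X receptor, it binds direct repeats of a short DNA motif and raises the transcription of genes that take up, bind and burn fatty acids, above all in fasting. Long-chain fatty acids cross into mitochondria as carnitine esters and are then shortened by repeated cycles of dehydrogenation, hydration, oxidation and thiolysis. Peroxisomes run a parallel pathway for very long chains. In the fasted liver the acetyl-CoA made in this way feeds ketone bodies, while glucose oxidation is held back.

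The 4 promoter windows below were searched for the binding motif. They belong to Fabp1, Ppara and Cpt1a, which were lower in CTNNB1_NFE2L2_MET than in WT, and to Pdk4, which was higher, and matches were found in Fabp1 and Cpt1a. Each is the RefSeq window of GRCm38.p6, 250 bases before to 50 bases after the transcription start, written 5′ to 3′ along the gene. Capitals mark matches to AGGTCA, the repeated element of nuclear receptor sites, or to a relaxed direct repeat of it (AGGNCA, 1 base of any kind, AGGNCA), searched on both strands. The windows are Fabp1 at chr6:71199629-71199928 on the plus strand, Ppara at chr15:85735526-85735825 on the plus strand, Cpt1a at chr19:3323051-3323350 on the plus strand, and Pdk4 at chr6:5496229-5496528 on the minus strand.
Fabp1: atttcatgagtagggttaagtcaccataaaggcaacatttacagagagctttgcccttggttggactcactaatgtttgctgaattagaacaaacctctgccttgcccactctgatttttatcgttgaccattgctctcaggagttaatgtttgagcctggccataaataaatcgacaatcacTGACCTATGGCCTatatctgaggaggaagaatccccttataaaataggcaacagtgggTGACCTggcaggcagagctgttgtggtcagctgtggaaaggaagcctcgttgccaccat
Ppara: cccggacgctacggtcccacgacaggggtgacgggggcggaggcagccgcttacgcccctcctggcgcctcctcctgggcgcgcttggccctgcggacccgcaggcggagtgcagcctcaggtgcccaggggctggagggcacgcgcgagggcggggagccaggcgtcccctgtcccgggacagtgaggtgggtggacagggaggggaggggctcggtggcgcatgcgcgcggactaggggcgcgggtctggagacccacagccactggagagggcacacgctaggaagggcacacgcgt
Cpt1a: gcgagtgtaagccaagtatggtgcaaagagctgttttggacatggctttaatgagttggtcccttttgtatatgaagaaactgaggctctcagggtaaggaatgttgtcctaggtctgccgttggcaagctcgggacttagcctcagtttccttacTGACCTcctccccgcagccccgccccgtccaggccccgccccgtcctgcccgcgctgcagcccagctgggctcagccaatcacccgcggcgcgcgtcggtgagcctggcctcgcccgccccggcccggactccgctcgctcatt
Pdk4: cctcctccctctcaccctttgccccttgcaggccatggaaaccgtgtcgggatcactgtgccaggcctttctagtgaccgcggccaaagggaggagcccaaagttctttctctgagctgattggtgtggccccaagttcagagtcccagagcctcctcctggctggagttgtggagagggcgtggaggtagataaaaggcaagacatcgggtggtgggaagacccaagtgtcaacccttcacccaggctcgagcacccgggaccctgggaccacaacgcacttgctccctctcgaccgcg
The Fabp1 window held a match to the direct repeat from -67 to -55 relative to the start, which overlaps the single element from -67 to -62, and another single element from -9 to -4. Cpt1a held a single element from -94 to -89. Ppara and Pdk4 held no match in these letters and this window. Among 32851 RefSeq windows of 300 bases, 16.3% held the single element and 0.381% held the direct repeat. Of the other members, Acadm, which did not differ by test in CTNNB1_NFE2L2_MET over WT, held a single element from -249 to -244. Acaa1b, which was lower there, Fgf21, which was higher, and Acadl, which did not differ by test, held no match. Acaa2 is not shown. A match describes the letters only and is not a measured binding site.

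Gene counts summed to 14084343 to 20702618 per library. The G31A-NFE2L2 and S45Y-CTNNB1 labels were checked with textbook target genes, and the hMET label was not checked. Nqo1, a target of NRF2, stood at 249 to 295 CPM in CTNNB1_NFE2L2_MET, 243 to 251 CPM in CTNNB1_NFE2L2 and 73.8 to 120 CPM in NFE2L2_MET, against 7.36 to 10.9 CPM in CTNNB1_MET and 4.92 to 5.90 CPM in WT. Glul, a target of β-catenin in hepatocytes, was at 1575 CPM or more in each library with S45Y-CTNNB1 and at most 594 CPM in the other libraries. CPM is the usual depth-scaled count (counts per library total, set to a fixed total), with the total scaled by TMM, edgeR's normalisation factor. Hepatocyte markers were abundant in all groups: none of the 9 was at 0, and albumin (Alb) ranged from 14265 to 140104 CPM. The share of unmapped reads moved with the groups, at 8.69 to 11.2% in CTNNB1_NFE2L2_MET, 15.8 to 19.1% in CTNNB1_MET, 9.71 to 11.8% in CTNNB1_NFE2L2, 12.7 to 14.2% in NFE2L2_MET and 19.8 to 25.9% in WT.

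The 9 genes fell into several patterns. Ppara and Fabp1 were lower in both groups that carry CTNNB1 with NFE2L2 than in CTNNB1_MET, NFE2L2_MET and WT, and Acaa2 and Cpt1a were lower there than in CTNNB1_MET and WT. Pdk4 ran the other way and was highest in CTNNB1_NFE2L2. Fgf21 was above WT in each library of each model, and passed the test against WT in the 3 groups that carry NFE2L2. CTNNB1_MET, which did not pass, was close to CTNNB1_NFE2L2 against WT (log2 fold changes of 1.37 and 1.43). These 2 groups did not differ by test (-0.06, edgeR adjusted p = 0.939). Acadm, Acadl and Acaa1b each had a different order of groups. Each gene differed among the 5 groups by edgeR's quasi-likelihood F test (adjusted p at most 0.00400), as did 65.5% of all genes tested. The members together took 0.313 to 0.417% of gene counts in CTNNB1_NFE2L2_MET, 0.651 to 0.676% in CTNNB1_MET, 0.426 to 0.471% in CTNNB1_NFE2L2, 0.366 to 0.522% in NFE2L2_MET and 0.692 to 0.793% in WT. Fabp1 alone made up 0.0719 to 0.135% of counts in CTNNB1_NFE2L2_MET and 0.352 to 0.441% in WT.

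A gene is called here where its edgeR adjusted p, over all 14098 genes, is under 0.05. In CTNNB1_NFE2L2_MET over WT, 2 members were higher, 5 lower and 2 not called, beside 49.9% of all genes called, 26.5% higher and 23.4% lower. In CTNNB1_MET over WT, 0 members were higher, 1 lower and 8 not called, beside 17.2% of all genes called, 11.0% higher and 6.22% lower. In CTNNB1_NFE2L2 over WT, 3 members were higher, 4 lower and 2 not called, beside 48.7% of all genes called, 24.5% higher and 24.2% lower. In NFE2L2_MET over WT, 1 member was higher, 3 lower and 5 not called, beside 23.4% of all genes called, 13.5% higher and 9.89% lower. The median log2 fold change of the members in these comparisons was -0.51, 0.04, -0.22 and -0.33, beside medians over all genes within 0.02 of 0. With so many genes called in the background, the counts of members are not a result by themselves, and the genes are described singly.

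The models were also set against each other. CTNNB1_NFE2L2_MET over NFE2L2_MET gave 2 members higher, 3 lower and 4 not called, beside 30.7% of all genes called, 16.4% higher and 14.3% lower. CTNNB1_NFE2L2_MET over CTNNB1_MET gave 2 members higher, 4 lower and 3 not called, beside 33.8% of all genes called, 18.4% higher and 15.4% lower. CTNNB1_NFE2L2_MET over CTNNB1_NFE2L2 gave 1 member higher, 3 lower and 5 not called, beside 25.0% of all genes called, 13.1% higher and 11.8% lower. CTNNB1_MET over NFE2L2_MET gave 4 members higher, 1 lower and 4 not called, beside 14.3% of all genes called, 6.96% higher and 7.36% lower. CTNNB1_NFE2L2 over NFE2L2_MET gave 2 members higher, 3 lower and 4 not called, beside 37.2% of all genes called, 18.3% higher and 18.9% lower. CTNNB1_MET over CTNNB1_NFE2L2 gave 4 members higher, 2 lower and 3 not called, beside 35.1% of all genes called, 17.2% higher and 17.9% lower. These comparisons share groups with each other and with those against WT, so they are not independent.

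Of 90 tests of a member in a comparison, 50 were called, and 33 of these held when each library of the comparison was left out in turn. The unmapped share is the measure that moved most of them. With a term for it in the fit, 0 members were called in each of the 4 comparisons with WT, and 14 of the 50 calls were kept in all. The WT libraries had a higher unmapped share than every model library, so this share and the difference between models and WT cannot be told apart. The models differed in it too: CTNNB1_NFE2L2_MET and CTNNB1_NFE2L2 were lowest, then NFE2L2_MET, then CTNNB1_MET, with no overlap between steps. Differences between steps cannot be told apart from it either. With the term, Acaa2 and Cpt1a kept no call between models. Ppara lost those of CTNNB1_NFE2L2_MET over NFE2L2_MET (-0.48, edgeR adjusted p = 0.0586) and CTNNB1_MET (-0.41, edgeR adjusted p = 0.387), and kept the others. Fabp1 lost only that of CTNNB1_MET over NFE2L2_MET.

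**Figure D1:**
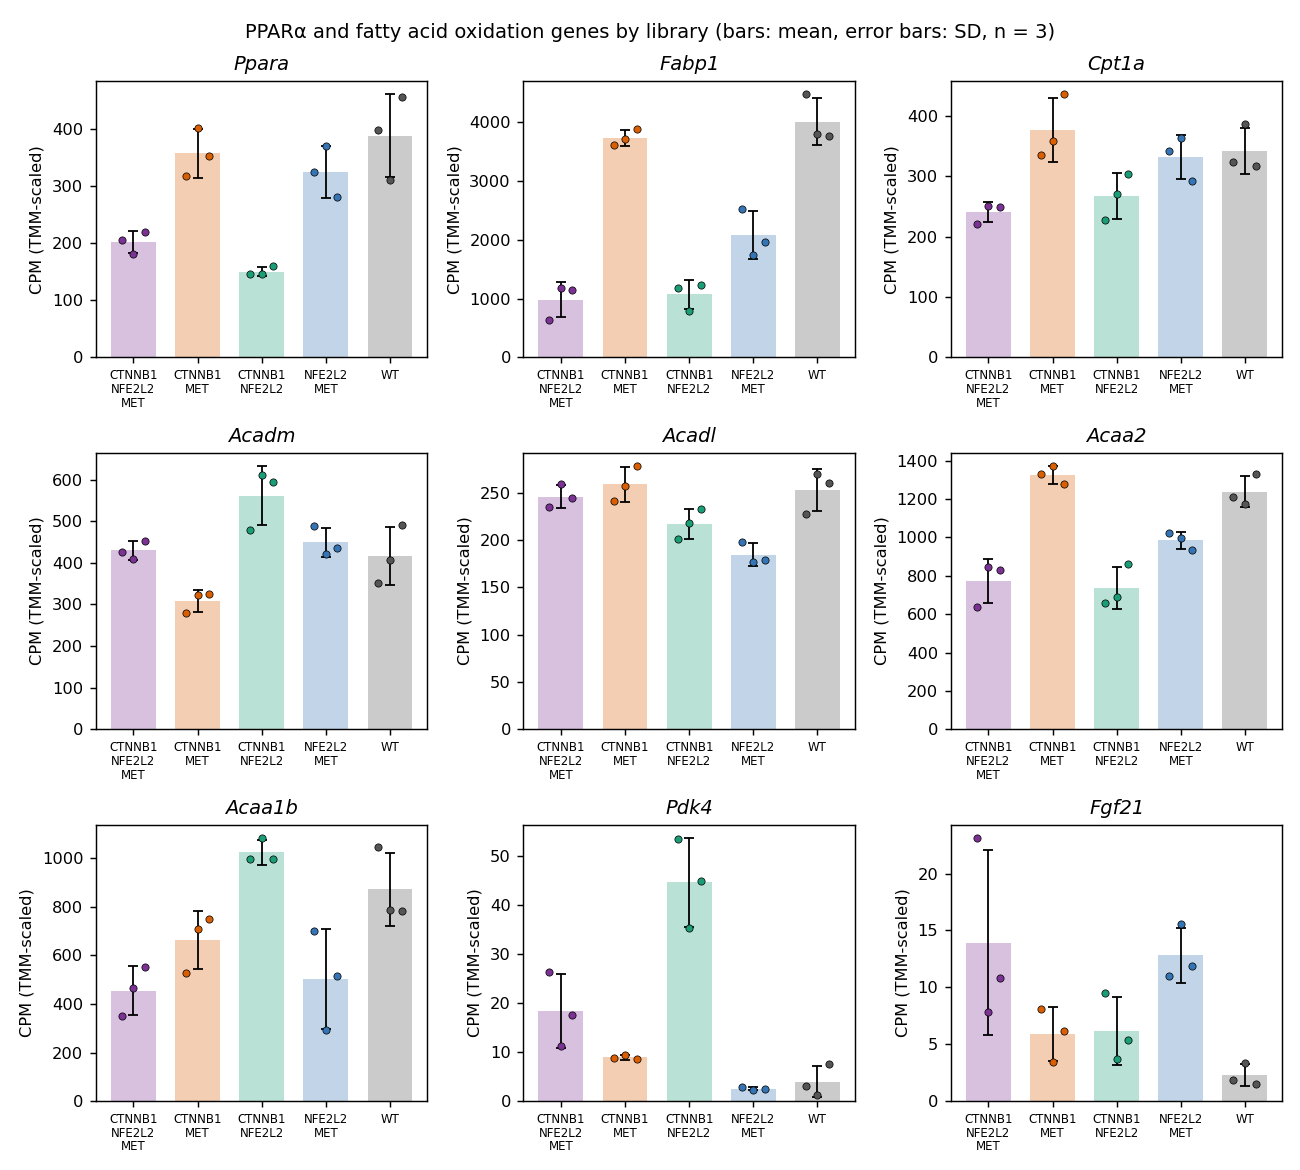
CPM (y axis, linear from 0) of the 9 genes in each of the 5 groups (x axis), with a point per library, bars for the mean and error bars for the SD of 3 libraries. Ppara, Fabp1 and Acaa2 are low in CTNNB1_NFE2L2_MET and CTNNB1_NFE2L2, Pdk4 is highest in CTNNB1_NFE2L2, and Fgf21 is lowest in WT.

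**Figure D2:**
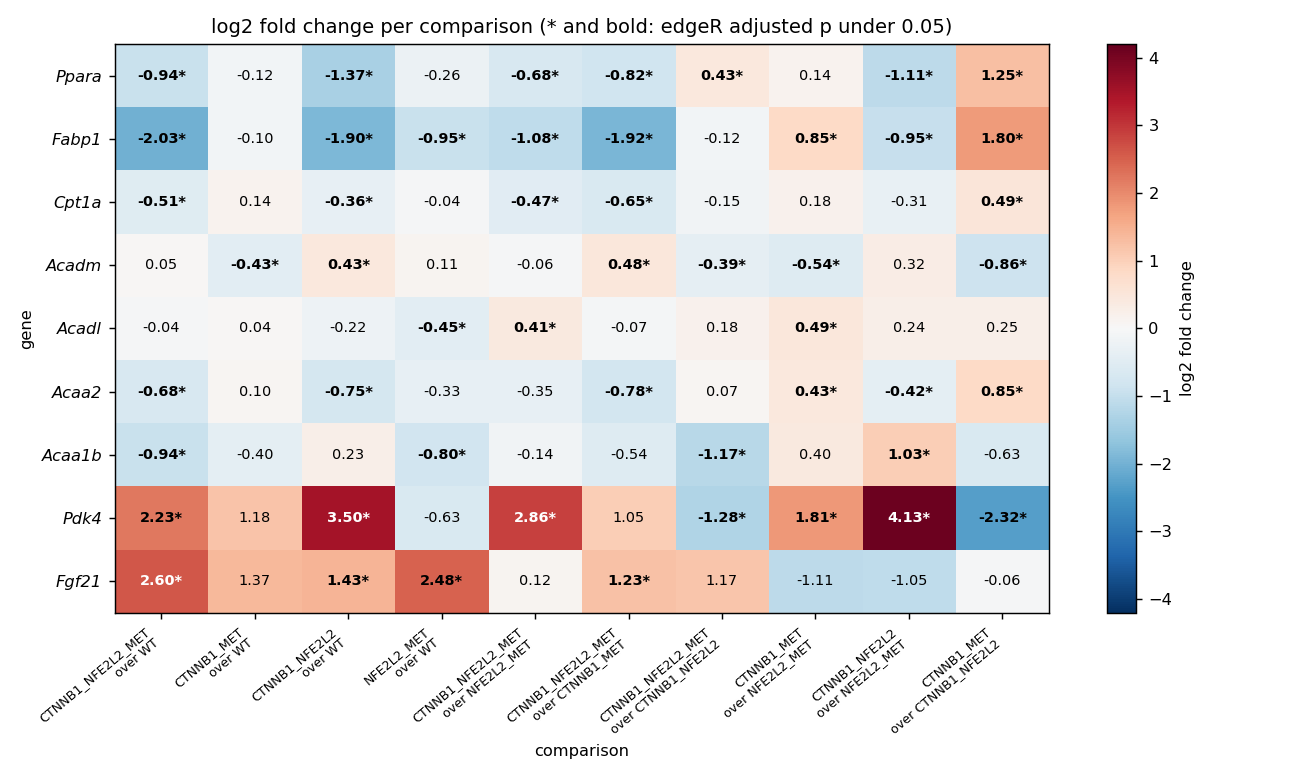
log2 fold change of each gene (rows) in each of the 10 comparisons (columns), first group over second, by edgeR. Blue is lower and red higher, and a bold value with a star has an adjusted p under 0.05. The range runs from -2.32 to 4.13, both for Pdk4.

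Ppara, the gene of the receptor itself, lies at chr15:85734983-85802819 on the plus strand (GRCm38). It stood at 206, 181 and 220 CPM in CTNNB1_NFE2L2_MET, 316, 402 and 353 CPM in CTNNB1_MET, 146, 146 and 159 CPM in CTNNB1_NFE2L2, 324, 370 and 280 CPM in NFE2L2_MET, and 398, 310 and 455 CPM in WT. Every library of the 2 groups with both CTNNB1 and NFE2L2 was below every library of the other groups, and CTNNB1_MET, NFE2L2_MET and WT overlapped. Ppara was 2.58-fold lower in CTNNB1_NFE2L2 than in WT, a log2 fold change of -1.37 ± 0.149 (standard error, edgeR adjusted p = 2.88e-06). In CTNNB1_NFE2L2_MET it was 1.92-fold lower than in WT (-0.94 ± 0.147, edgeR adjusted p = 8.7e-05). Between models it was lower in CTNNB1_NFE2L2_MET than in NFE2L2_MET (-0.68 ± 0.147, edgeR adjusted p = 0.00253) and than in CTNNB1_MET (-0.82 ± 0.147, edgeR adjusted p = 0.000577). It was also lower in CTNNB1_NFE2L2 than in NFE2L2_MET (-1.11 ± 0.148, edgeR adjusted p = 3.57e-05), and higher in CTNNB1_MET than in CTNNB1_NFE2L2 (1.25 ± 0.148, edgeR adjusted p = 1.15e-05). CTNNB1_MET and NFE2L2_MET did not pass against WT, at -0.12 ± 0.146 and -0.26 ± 0.146 (edgeR adjusted p = 0.63 and 0.221). In bulk liver, fewer cells of a type and less RNA per cell cannot be told apart.

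All but 1 of the 7 Ppara calls held when each library was left out. The exception is the higher level in CTNNB1_NFE2L2_MET than in CTNNB1_NFE2L2 (0.43 ± 0.146, edgeR adjusted p = 0.0435). That call was lost without CTNNB1_NFE2L2_MET replicate 1 or 3, or without any 1 of the 3 CTNNB1_NFE2L2 libraries, with values of 0.36 to 0.47 and a highest p of 0.13. Total-count scaling, which shifts the median of all genes to 0.38 in CTNNB1_NFE2L2_MET over NFE2L2_MET, ended the Ppara call there (-0.32, edgeR adjusted p = 0.0649). In order of level, WT, CTNNB1_MET and NFE2L2_MET did not differ between neighbours (edgeR adjusted p = 0.63 and 0.577), and CTNNB1_NFE2L2_MET and CTNNB1_NFE2L2 followed.

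Fabp1 encodes the liver fatty acid binding protein, which carries fatty acids through the cytosol and to the nucleus and is a textbook PPARα target. It lies at chr6:71199827-71205023 on the plus strand (GRCm38), and its promoter is the 1 shown above with the direct repeat. Its levels were 634, 1176 and 1138 CPM in CTNNB1_NFE2L2_MET, 3603, 3713 and 3875 CPM in CTNNB1_MET, 1182, 793 and 1239 CPM in CTNNB1_NFE2L2, 2523, 1732 and 1967 CPM in NFE2L2_MET, and 4470, 3789 and 3758 CPM in WT. The groups fall into 3 levels without overlap: CTNNB1_NFE2L2_MET with CTNNB1_NFE2L2 lowest, NFE2L2_MET between, and CTNNB1_MET with WT highest. Fabp1 was 4.08-fold lower in CTNNB1_NFE2L2_MET than in WT (-2.03 ± 0.233, edgeR adjusted p = 4.74e-06) and 3.74-fold lower in CTNNB1_NFE2L2 (-1.90 ± 0.232, edgeR adjusted p = 9.17e-06). NFE2L2_MET was 1.93-fold lower than WT (-0.95 ± 0.227, edgeR adjusted p = 0.00757). CTNNB1_MET stood at -0.10 ± 0.225 against WT and did not pass (edgeR adjusted p = 0.797).

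Fabp1 also differed between models. It was lower in CTNNB1_NFE2L2_MET than in CTNNB1_MET (-1.92 ± 0.232, edgeR adjusted p = 2.23e-05) and than in NFE2L2_MET (-1.08 ± 0.227, edgeR adjusted p = 0.00221). It was lower in CTNNB1_NFE2L2 than in NFE2L2_MET (-0.95 ± 0.227, edgeR adjusted p = 0.00396). The pair with both CTNNB1 and NFE2L2 did not differ by test (-0.12 ± 0.225, edgeR adjusted p = 0.727). The higher level in CTNNB1_MET than in NFE2L2_MET (0.85 ± 0.226, edgeR adjusted p = 0.0199) was lost without CTNNB1_MET replicate 2 or 3 or NFE2L2_MET replicate 2 or 3, where it was 0.73 to 0.85 with a highest edgeR adjusted p of 0.0794.

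The groups with low Ppara and Fabp1 also had lower hepatocyte markers and lower clock genes, while higher cell cycle genes were found in all models. As background, 23.4% of all genes were lower than WT and 26.5% higher in CTNNB1_NFE2L2_MET, and 24.2% and 24.5% in CTNNB1_NFE2L2. In CTNNB1_MET these shares were 6.22% and 11.0%, and in NFE2L2_MET 9.89% and 13.5%. Against WT, 7 of 9 hepatocyte markers were lower and 0 higher in CTNNB1_NFE2L2_MET and likewise in CTNNB1_NFE2L2, with medians of -1.10 and -1.03. In CTNNB1_MET 0 were lower and 2 higher, and in NFE2L2_MET 1 was lower and 2 higher. The 2 higher markers became 1 without any 1 library in CTNNB1_MET, and without WT replicate 1 or NFE2L2_MET replicate 2 or 3 in NFE2L2_MET. Their summed level was 69918 to 73976 CPM in CTNNB1_NFE2L2_MET, 133279 to 142997 CPM in CTNNB1_MET, 33597 to 42546.5 CPM in CTNNB1_NFE2L2, 135931 to 177489 CPM in NFE2L2_MET and 80164 to 109259 CPM in WT. All 8 cell cycle genes were higher than WT in CTNNB1_NFE2L2_MET, CTNNB1_MET and CTNNB1_NFE2L2, and 4 were in NFE2L2_MET, a count that fell to 2 without any 1 WT library or NFE2L2_MET replicate 3. Of 13 core clock genes, whose rhythm Ppara follows in mouse liver, 9 were lower than WT in CTNNB1_NFE2L2_MET and 5 in CTNNB1_NFE2L2, against 0 in CTNNB1_MET and 2 in NFE2L2_MET, where 1 was higher. The clock genes Ciart, Cry2, Per2 and Tef were those with the smallest p over the groups. Ciart fell in CTNNB1_NFE2L2_MET (-2.24) and CTNNB1_NFE2L2 (-1.95), Cry2 fell in CTNNB1_NFE2L2_MET (-0.93) and CTNNB1_NFE2L2 (-0.68), Per2 had no call that held without each library, and Tef fell in CTNNB1_NFE2L2_MET (-1.11). The clock counts fell to 5 in CTNNB1_NFE2L2_MET without WT replicate 1 and to 3 in CTNNB1_NFE2L2 without its replicate 2. The 2 lower clock genes in NFE2L2_MET became 4 without WT replicate 2, and 1 without WT replicate 1 or 3 or NFE2L2_MET replicate 1 or 3. The part of hepatocyte content, cell division and time of day in the levels of Ppara and Fabp1 was not tested.

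Cpt1a encodes carnitine palmitoyltransferase of the outer mitochondrial membrane, which makes the carnitine esters and sets the rate of mitochondrial entry. It lies at chr19:3322334-3385733 on the plus strand (GRCm38). It stood at 221, 251 and 249 CPM in CTNNB1_NFE2L2_MET, 335, 358 and 436 CPM in CTNNB1_MET, 228, 270 and 304 CPM in CTNNB1_NFE2L2, 342, 363 and 291 CPM in NFE2L2_MET, and 323, 386 and 318 CPM in WT. All libraries of CTNNB1_NFE2L2_MET were below all libraries of CTNNB1_MET, NFE2L2_MET and WT. CTNNB1_NFE2L2 overlapped NFE2L2_MET but not CTNNB1_MET or WT. Cpt1a was 1.42-fold lower in CTNNB1_NFE2L2_MET than in WT (-0.51 ± 0.138, edgeR adjusted p = 0.00634) and 1.57-fold lower than in CTNNB1_MET (-0.65 ± 0.138, edgeR adjusted p = 0.00218). Both calls held without any 1 library, but total-count scaling ended the call against WT (-0.27, edgeR adjusted p = 0.0973) and moved the other to -0.38.

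The other Cpt1a calls depended on single libraries. In CTNNB1_NFE2L2 over WT (-0.36 ± 0.138, edgeR adjusted p = 0.0442) the call was lost without WT replicate 1 or 2 or CTNNB1_NFE2L2 replicate 1 or 2, with values of -0.25 to -0.40, and also under total-count scaling (-0.18, edgeR adjusted p = 0.295) and RLE scaling (-0.34, edgeR adjusted p = 0.0553). In CTNNB1_NFE2L2_MET over NFE2L2_MET (-0.47 ± 0.138, edgeR adjusted p = 0.0178) it was lost without CTNNB1_NFE2L2_MET replicate 1 or NFE2L2_MET replicate 1 or 2, at -0.40 to -0.45, and total-count scaling gave -0.10. In CTNNB1_MET over CTNNB1_NFE2L2 (0.49 ± 0.138, edgeR adjusted p = 0.0118) it was lost without CTNNB1_MET replicate 3 (0.37) or CTNNB1_NFE2L2 replicate 1 (0.39) and under total-count scaling (0.28, edgeR adjusted p = 0.109). Neighbours in the order of Cpt1a levels, CTNNB1_MET, WT, NFE2L2_MET, CTNNB1_NFE2L2 and CTNNB1_NFE2L2_MET, did not pass a test against each other (edgeR adjusted p = 0.0889 to 0.853).

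Acadm, Acadl and Acaa2 encode enzymes of the mitochondrial cycle. Acaa2, the thiolase that ends each turn, followed Ppara and Fabp1. It lies at chr18:74779197-74806208 on the plus strand (GRCm38). Its levels were 640, 845 and 830 CPM in CTNNB1_NFE2L2_MET, 1329, 1370 and 1276 CPM in CTNNB1_MET, 656, 692 and 861 CPM in CTNNB1_NFE2L2, 1022, 999 and 935 CPM in NFE2L2_MET, and 1209, 1176 and 1332 CPM in WT. NFE2L2_MET lay between the low pair and the high pair without overlap. Acaa2 was 1.61-fold lower in CTNNB1_NFE2L2_MET than in WT (-0.68 ± 0.137, edgeR adjusted p = 0.000707) and 1.68-fold lower in CTNNB1_NFE2L2 (-0.75 ± 0.137, edgeR adjusted p = 0.000369). It was also lower in CTNNB1_NFE2L2_MET than in CTNNB1_MET (-0.78 ± 0.137, edgeR adjusted p = 0.000506), and higher in CTNNB1_MET than in CTNNB1_NFE2L2 (0.85 ± 0.137, edgeR adjusted p = 0.000208). These 4 calls held without any 1 library.

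The steps of Acaa2 next to NFE2L2_MET were less firm. CTNNB1_NFE2L2_MET over NFE2L2_MET did not pass (-0.35 ± 0.137, edgeR adjusted p = 0.0625), nor did NFE2L2_MET over WT (-0.33 ± 0.137, edgeR adjusted p = 0.0936). DESeq2 called both, at -0.35 (DESeq2 adjusted p = 0.0237) and -0.34 (DESeq2 adjusted p = 0.0327). Total-count scaling also called NFE2L2_MET over WT (-0.46, edgeR adjusted p = 0.0199). CTNNB1_NFE2L2 over NFE2L2_MET passed (-0.42 ± 0.137, edgeR adjusted p = 0.0244), but not without CTNNB1_NFE2L2 replicate 1 or 2 or NFE2L2_MET replicate 1 or 2 (-0.34 to -0.41), nor under total-count scaling (-0.11, edgeR adjusted p = 0.522). CTNNB1_MET over NFE2L2_MET passed narrowly (0.43 ± 0.137, edgeR adjusted p = 0.0481), and leaving out any 1 of the 6 libraries ended that call (0.39 to 0.45).

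Acadm encodes the medium-chain acyl-CoA dehydrogenase, and it did not follow Ppara. It lies at chr3:153922357-153944632 on the minus strand (GRCm38), and 2.04% of its 50-base stretches also occur in the gene Gm5131. It stood at 426, 410 and 453 CPM in CTNNB1_NFE2L2_MET, 279, 323 and 325 CPM in CTNNB1_MET, 480, 611 and 594 CPM in CTNNB1_NFE2L2, 489, 422 and 437 CPM in NFE2L2_MET, and 351, 408 and 490 CPM in WT. CTNNB1_NFE2L2 was highest on average and overlapped NFE2L2_MET and WT, and all CTNNB1_MET libraries were below all others. Acadm was 1.82-fold lower in CTNNB1_MET than in CTNNB1_NFE2L2 (-0.86 ± 0.136, edgeR adjusted p = 0.000164), a call that held without any 1 library. In CTNNB1_NFE2L2_MET it stood at 0.05 ± 0.135 against WT and did not pass (edgeR adjusted p = 0.807).

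The remaining 5 Acadm calls were each lost by leaving out a library. CTNNB1_MET over WT (-0.43 ± 0.135, edgeR adjusted p = 0.0397) kept its call only without WT replicate 1, and the value without WT replicate 3 was -0.30. CTNNB1_NFE2L2 over WT (0.43 ± 0.135, edgeR adjusted p = 0.0157) lost it without WT replicate 1 (0.32) or CTNNB1_NFE2L2 replicate 2 (0.37) or 3 (0.39). CTNNB1_NFE2L2_MET over CTNNB1_MET (0.48 ± 0.135, edgeR adjusted p = 0.0132) lost it without CTNNB1_MET replicate 1 (0.41). CTNNB1_NFE2L2_MET over CTNNB1_NFE2L2 (-0.39 ± 0.135, edgeR adjusted p = 0.0483) kept it only without CTNNB1_NFE2L2 replicate 1, with values of -0.32 to -0.43 elsewhere. CTNNB1_MET over NFE2L2_MET (-0.54 ± 0.136, edgeR adjusted p = 0.014) lost it without CTNNB1_MET replicate 1 (-0.47) or NFE2L2_MET replicate 1 (-0.48).

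Acadl, the long-chain acyl-CoA dehydrogenase, varied least. It lies at chr1:66830839-66863277 on the minus strand (GRCm38). Its levels were 235, 259 and 244 CPM in CTNNB1_NFE2L2_MET, 242, 257 and 278 CPM in CTNNB1_MET, 201, 218 and 233 CPM in CTNNB1_NFE2L2, 198, 177 and 179 CPM in NFE2L2_MET, and 228, 270 and 260 CPM in WT. NFE2L2_MET was lowest, with all 3 libraries below those of every other group. Acadl was 1.37-fold lower in NFE2L2_MET than in WT (-0.45 ± 0.102, edgeR adjusted p = 0.00523), and it was higher than NFE2L2_MET in CTNNB1_NFE2L2_MET (0.41 ± 0.102, edgeR adjusted p = 0.00618) and in CTNNB1_MET (0.49 ± 0.102, edgeR adjusted p = 0.00423). All 3 calls held without any 1 library, and total-count scaling moved the middle value to 0.78. The other 7 comparisons did not pass, and CTNNB1_NFE2L2 over WT (-0.22 ± 0.102, edgeR adjusted p = 0.0916) was called without WT replicate 1 (-0.29).

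Acaa1b encodes the peroxisomal thiolase B, the inducible rodent form, and its values are uncertain because 39.6% of its 50-base stretches occur in other genes, 30.5% in its close copy Acaa1a. It lies at chr9:119148023-119157093 on the minus strand (GRCm38) and shares 224 exonic bases with Dlec1 on the opposite strand, which counts without strand cannot separate. It stood at 349, 464 and 553 CPM in CTNNB1_NFE2L2_MET, 528, 711 and 750 CPM in CTNNB1_MET, 996, 1085 and 996 CPM in CTNNB1_NFE2L2, 702, 291 and 515 CPM in NFE2L2_MET, and 1047, 789 and 781 CPM in WT. CTNNB1_NFE2L2_MET, CTNNB1_MET and NFE2L2_MET were below WT in all libraries, while CTNNB1_NFE2L2 overlapped WT. Acaa1b was 1.92-fold lower in CTNNB1_NFE2L2_MET than in WT (-0.94 ± 0.259, edgeR adjusted p = 0.0075). It was 2.25-fold lower there than in CTNNB1_NFE2L2 (-1.17 ± 0.26, edgeR adjusted p = 0.00477), and 2.04-fold higher in CTNNB1_NFE2L2 than in NFE2L2_MET (1.03 ± 0.259, edgeR adjusted p = 0.00627). So the 2 groups that shared low Ppara and Fabp1 differed in this gene. NFE2L2_MET over WT (-0.80 ± 0.258, edgeR adjusted p = 0.0381) lost its call without WT replicate 1 (-0.64) or NFE2L2_MET replicate 2 (-0.52) or 3 (-0.81).

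Pdk4 encodes a kinase that phosphorylates and inhibits pyruvate dehydrogenase, and its transcript rises with PPARα activity in fasting. It lies at chr6:5483351-5496309 on the minus strand (GRCm38), and its promoter window above held no match to the motifs. It stood at 26.5, 11.3 and 17.6 CPM in CTNNB1_NFE2L2_MET, 8.89, 9.42 and 8.51 CPM in CTNNB1_MET, 53.6, 35.4 and 45.1 CPM in CTNNB1_NFE2L2, 2.89, 2.26 and 2.46 CPM in NFE2L2_MET, and 3.09, 1.25 and 7.50 CPM in WT. The 3 groups with CTNNB1 did not overlap NFE2L2_MET or WT, and they did not overlap each other. Pdk4 was 11.4-fold higher in CTNNB1_NFE2L2 than in WT (3.50 ± 0.456, edgeR adjusted p = 5.01e-05) and 4.69-fold higher in CTNNB1_NFE2L2_MET (2.23 ± 0.451, edgeR adjusted p = 0.00126). It was 17.5-fold higher in CTNNB1_NFE2L2 than in NFE2L2_MET (4.13 ± 0.477, edgeR adjusted p = 3.08e-05), 7.24-fold higher in CTNNB1_NFE2L2_MET than in NFE2L2_MET (2.86 ± 0.472, edgeR adjusted p = 0.000696), and 5.0-fold lower in CTNNB1_MET than in CTNNB1_NFE2L2 (-2.32 ± 0.418, edgeR adjusted p = 0.000949). In direction this is the reverse of Ppara in the same pair of groups.

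The WT level of Pdk4 rests on few counts, 43 and 21 in replicates 1 and 2 and more in replicate 3, and WT replicate 3 set the size of each difference from WT. Without it the values were 4.40 in CTNNB1_NFE2L2 and 3.12 in CTNNB1_NFE2L2_MET, and CTNNB1_MET over WT, which had not passed (1.18 ± 0.463, edgeR adjusted p = 0.101), was called at 2.08 (edgeR adjusted p = 0.00483). NFE2L2_MET over WT (-0.63 ± 0.519, edgeR adjusted p = 0.416) changed sign without it, to 0.27. With WT replicate 3 kept, DESeq2 called CTNNB1_MET over WT (1.17, adjusted p = 0.0302). CTNNB1_MET over NFE2L2_MET (1.81 ± 0.484, edgeR adjusted p = 0.0256) lost its call when any 1 library was left out (1.74 to 1.91). CTNNB1_NFE2L2_MET over CTNNB1_NFE2L2 (-1.28 ± 0.394, edgeR adjusted p = 0.0327) lost it without CTNNB1_NFE2L2_MET replicate 2 or 3 or CTNNB1_NFE2L2 replicate 1 or 3 (-1.02 to -1.27). CTNNB1_NFE2L2_MET over CTNNB1_MET (1.05 ± 0.415, edgeR adjusted p = 0.07) gained a call without CTNNB1_NFE2L2_MET replicate 2 (1.30).

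Fgf21 encodes a hormone secreted by the liver in fasting and under cell stress. It lies at chr7:45613886-45615490 on the minus strand (GRCm38). It stood at 23.1, 7.84 and 10.8 CPM in CTNNB1_NFE2L2_MET, 8.09, 3.40 and 6.16 CPM in CTNNB1_MET, 9.47, 3.66 and 5.34 CPM in CTNNB1_NFE2L2, 10.96, 15.6 and 11.9 CPM in NFE2L2_MET, and 1.87, 3.38 and 1.54 CPM in WT. All 12 libraries of the models were above all 3 WT libraries, and the models overlapped except that NFE2L2_MET was above CTNNB1_MET and CTNNB1_NFE2L2. Fgf21 was 6.07-fold higher in CTNNB1_NFE2L2_MET than in WT (2.60 ± 0.496, edgeR adjusted p = 0.000751) and 5.59-fold higher in NFE2L2_MET (2.48 ± 0.498, edgeR adjusted p = 0.00356), and both calls held without any 1 library. CTNNB1_NFE2L2 over WT (1.43 ± 0.505, edgeR adjusted p = 0.032) lost its call without WT replicate 1 (1.31) or 3 (1.21) or CTNNB1_NFE2L2 replicate 1 (0.97). CTNNB1_MET over WT did not pass (1.37 ± 0.51, edgeR adjusted p = 0.0844), but was called by DESeq2 (1.37, adjusted p = 0.015).

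Between models, 1 of the 6 comparisons of Fgf21 was called. CTNNB1_NFE2L2_MET over CTNNB1_MET passed narrowly (1.23 ± 0.447, edgeR adjusted p = 0.0495), and was lost without CTNNB1_NFE2L2_MET replicate 1 (0.65) or 3 (1.38) or CTNNB1_MET replicate 2 (0.97) or 3 (1.26). CTNNB1_NFE2L2_MET over CTNNB1_NFE2L2 (1.17 ± 0.442, edgeR adjusted p = 0.0697) gained a call without CTNNB1_NFE2L2_MET replicate 2 (1.46) or CTNNB1_NFE2L2 replicate 1 (1.63). CTNNB1_NFE2L2 over NFE2L2_MET (-1.05 ± 0.445, edgeR adjusted p = 0.0821) gained one without CTNNB1_NFE2L2 replicate 1 (-1.51), with the 2 groups alone (-1.05, edgeR adjusted p = 0.0399), with a term for the unmapped share (-1.71, edgeR adjusted p = 0.0153) and by DESeq2 (-1.03, adjusted p = 0.0407). CTNNB1_MET over NFE2L2_MET, which did not overlap either, was -1.11 ± 0.450 and did not pass (edgeR adjusted p = 0.125), but was called with the 2 groups alone (-1.11, edgeR adjusted p = 0.0314). With a term for the unmapped share, Fgf21 changed sign to -0.19 in CTNNB1_NFE2L2_MET over WT, -1.17 in CTNNB1_NFE2L2 over WT and -0.33 in CTNNB1_NFE2L2_MET over CTNNB1_MET, none of them called. Macrophage and Kupffer cell markers moved in the same direction as Fgf21 against WT: of 8, 7 were higher in each of CTNNB1_NFE2L2_MET, CTNNB1_NFE2L2 and NFE2L2_MET and 5 in CTNNB1_MET, with 0 lower. Their summed level was 531 to 777 CPM in CTNNB1_NFE2L2_MET, 342 to 418 CPM in CTNNB1_MET, 525 to 723 CPM in CTNNB1_NFE2L2, 461 to 553 CPM in NFE2L2_MET and 238 to 273 CPM in WT, with no marker at 0. The count in CTNNB1_MET fell to 2 without WT replicate 1 or CTNNB1_MET replicate 1 or 2, and to 3 without WT replicate 3. Of all genes, 26.5% were higher than WT in CTNNB1_NFE2L2_MET, 24.5% in CTNNB1_NFE2L2, 13.5% in NFE2L2_MET and 11.0% in CTNNB1_MET. The part of these markers in the Fgf21 levels was not tested. Markers of other immune cells were low, with sums of at most 11.3 CPM for T and NK cells, 5.74 CPM for B cells and 27.1 CPM for neutrophils in any library.

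Divided by exon length, so that genes can be set side by side, the order of levels was much the same in each group. The length is that of all annotated exons of a gene merged, which can exceed the expressed transcript and lower the value, so comparisons between genes are rough. In CPM per kb of exon, Fabp1 averaged 1777 ± 547 in CTNNB1_NFE2L2_MET, 6746 ± 247 in CTNNB1_MET, 1937 ± 438 in CTNNB1_NFE2L2, 3751 ± 735 in NFE2L2_MET and 7244 ± 728 in WT (SD, n = 3). Acaa2 came next at 509 ± 75.6 in CTNNB1_NFE2L2_MET, 874 ± 31.1 in CTNNB1_MET, 650 ± 29.6 in NFE2L2_MET and 817 ± 54.0 in WT. In CTNNB1_NFE2L2 Acaa1b came next, at 523 ± 26.1 beside 486 ± 72.3 for Acaa2. Ppara itself averaged 39.1 ± 2.06 in CTNNB1_NFE2L2 and 101.03 ± 18.9 in WT. Pdk4 and Fgf21 were lowest in all groups, with Pdk4 at 0.723 ± 0.0909 in NFE2L2_MET and 12.7 ± 2.60 in CTNNB1_NFE2L2, where it stood above Fgf21 at 6.47 ± 3.14.

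**Figure D3:**
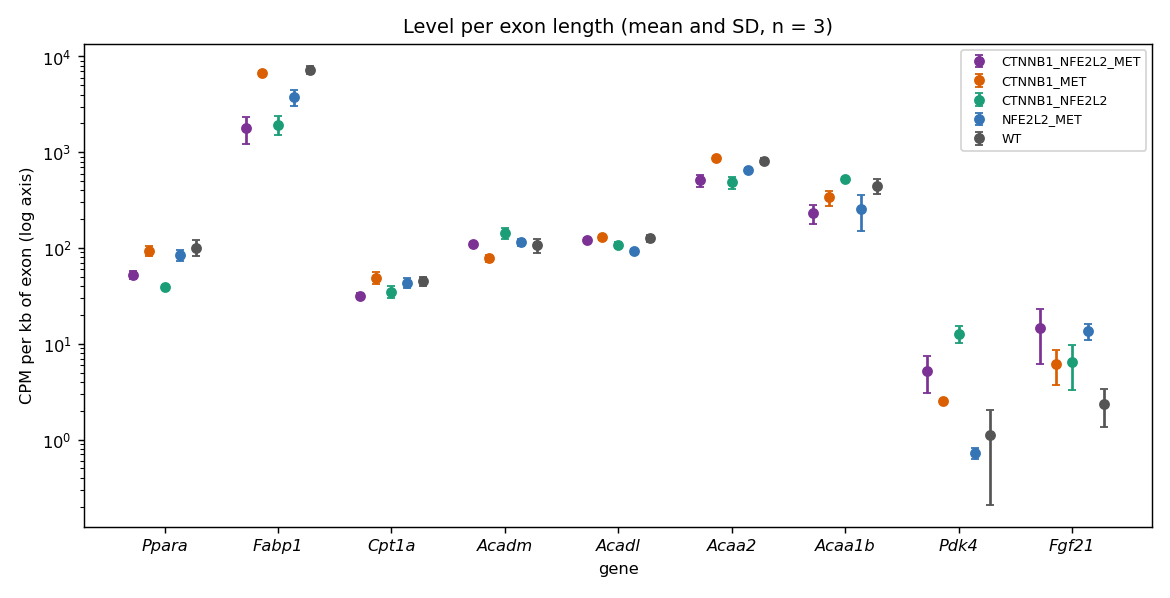
Mean level of the 9 genes (x axis) in CPM per kb of exon on a log axis, with a point and SD of 3 libraries for each group. Fabp1 is the most abundant in all groups, at 1777 to 7244, and Pdk4 and Fgf21 lie below 20 in all of them.

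Among the transcription partners of PPARα and related regulators, lower calls outnumbered higher calls in the 2 groups that carry CTNNB1 with NFE2L2. The list of 12 also holds the corepressor Ncor1 and the related receptors Ppard and Pparg, so its counts and median do not describe coactivators alone. Of the 12, 9 were lower than WT and 1 higher in CTNNB1_NFE2L2_MET, and 6 lower and 1 higher in CTNNB1_NFE2L2. In NFE2L2_MET 3 were lower, and in CTNNB1_MET 1 was. The median of the list was -0.67 in CTNNB1_NFE2L2_MET, -0.46 in CTNNB1_NFE2L2, -0.27 in NFE2L2_MET and 0.01 in CTNNB1_MET. Of all genes, 23.4% were lower and 26.5% higher in CTNNB1_NFE2L2_MET, and 24.2% and 24.5% in CTNNB1_NFE2L2. In NFE2L2_MET the shares were 9.89% and 13.5%, and in CTNNB1_MET 6.22% and 11.0%. These shares are repeated in each paragraph of list counts below, and no list was tested against them. A count near its share is not a result by itself. For genes outside the 9, rises and falls are named where the call held without any 1 library, unless stated otherwise. Under total-count scaling the count was 5 lower and 2 higher in CTNNB1_NFE2L2_MET, and 6 lower in NFE2L2_MET. With a term for the unmapped share, none of the pathway lists counted here and below kept more than 2 calls in a direction in any model. Rxra, the retinoid X receptor that PPARα pairs with, averaged 385 ± 19.5 CPM in CTNNB1_NFE2L2_MET, 557 ± 84.0 CPM in CTNNB1_MET, 515 ± 104 CPM in CTNNB1_NFE2L2, 443 ± 26.0 CPM in NFE2L2_MET and 567 ± 51.1 CPM in WT, and only CTNNB1_NFE2L2_MET was called against WT (-0.56, edgeR adjusted p = 0.00569), a call that total-count scaling ended (-0.32, edgeR adjusted p = 0.0651). Creb3l3, a liver transcription factor that acts with PPARα on Fgf21 in mice, fell in CTNNB1_NFE2L2_MET (-0.88, edgeR adjusted p = 6.79e-05) and CTNNB1_NFE2L2 (-0.81, edgeR adjusted p = 0.000151), at 230 ± 30.98 and 241 ± 38.2 CPM against 424 ± 26.9 CPM in WT.

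The coactivator Ppargc1b fell in each model, to 3.24 ± 0.496 CPM in CTNNB1_NFE2L2_MET, 8.17 ± 3.55 CPM in CTNNB1_MET, 4.36 ± 1.14 CPM in CTNNB1_NFE2L2 and 5.67 ± 0.992 CPM in NFE2L2_MET, against 18.6 ± 6.35 CPM in WT. The CTNNB1_MET call (-1.17) was lost without WT replicate 1 or 3 or CTNNB1_MET replicate 1 or 2. Ppargc1a, its better known relative, averaged 6.26 ± 1.14 CPM in CTNNB1_NFE2L2_MET, 12.4 ± 0.966 CPM in CTNNB1_MET, 6.66 ± 0.699 CPM in CTNNB1_NFE2L2, 5.66 ± 1.13 CPM in NFE2L2_MET and 11.3 ± 5.05 CPM in WT, and its 3 calls against WT were each lost without WT replicate 3. Ncoa1, another coactivator, fell in CTNNB1_NFE2L2_MET (-0.77) and CTNNB1_NFE2L2 (-0.73, edgeR adjusted p = 6.4e-05). Pparg, the related receptor best known from fat cells, was the list's member that rose, to 16.4 ± 1.84 CPM in CTNNB1_NFE2L2_MET (2.13, edgeR adjusted p = 9.11e-08) and 23.7 ± 2.75 CPM in CTNNB1_NFE2L2 (2.66, edgeR adjusted p = 9.83e-09), against 3.76 ± 0.31 CPM in WT. Of the 6 adipocyte markers none passed the filter on low counts, and their sum was at most 1.42 CPM in any library. So Ppara was lower and Pparg higher in the same 2 groups.

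Enzymes of the mitochondrial cycle outside the 9 genes were lower more often than higher in 3 models. Of 16, 12 were lower and 0 higher than WT in CTNNB1_NFE2L2_MET, 11 lower and 1 higher in CTNNB1_NFE2L2, 8 lower and 1 higher in NFE2L2_MET, and 1 lower in CTNNB1_MET. Of all genes, 23.4%, 24.2%, 9.89% and 6.22% were lower in these groups, in that order, and 26.5%, 24.5%, 13.5% and 11.0% were higher. The median of the list was -0.58 in CTNNB1_NFE2L2_MET, -0.48 in CTNNB1_NFE2L2, -0.36 in NFE2L2_MET and -0.21 in CTNNB1_MET. The count in NFE2L2_MET fell to 5 without NFE2L2_MET replicate 2 or 3. Hadha, the α subunit of the trifunctional protein, averaged 342 ± 16.4 CPM in CTNNB1_NFE2L2_MET, 429 ± 22.2 CPM in CTNNB1_MET, 338 ± 18.3 CPM in CTNNB1_NFE2L2, 414 ± 27.4 CPM in NFE2L2_MET and 524 ± 46.5 CPM in WT. It fell in CTNNB1_NFE2L2_MET (-0.62, edgeR adjusted p = 0.000171) and CTNNB1_NFE2L2 (-0.63, edgeR adjusted p = 0.000155). Etfdh, which passes electrons from the acyl-CoA dehydrogenases to the respiratory chain, was the 1 enzyme that fell in CTNNB1_MET (-0.83), and it fell also in CTNNB1_NFE2L2_MET (-1.06), CTNNB1_NFE2L2 (-1.20) and NFE2L2_MET (-0.88). Acadvl, the very long-chain dehydrogenase, fell in CTNNB1_NFE2L2_MET (-0.49), CTNNB1_NFE2L2 (-0.48) and NFE2L2_MET (-0.44), and total-count scaling ended the first of these calls (-0.25, edgeR adjusted p = 0.0573). Etfb, a subunit of the electron carrier before Etfdh, fell in CTNNB1_NFE2L2_MET (-0.75) and CTNNB1_NFE2L2 (-0.53), and Acadsb, a dehydrogenase of branched short chains, fell in CTNNB1_NFE2L2_MET (-1.11) and CTNNB1_NFE2L2 (-0.81). Acad10, an acyl-CoA dehydrogenase family member, rose in CTNNB1_NFE2L2 (1.14, edgeR adjusted p = 8.92e-06), to 61.1 ± 8.97 CPM against 27.8 ± 5.25 CPM in WT.

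The list of the carnitine shuttle around Cpt1a held 8 tested genes of 9. It includes Acaca, Acacb and Mlycd, which make or break down malonyl-CoA, so its counts do not give a direction of the shuttle itself. In CTNNB1_NFE2L2_MET 4 were lower than WT and 1 higher (all genes, 23.4% and 26.5%), and in CTNNB1_MET 1 and 1 (6.22% and 11.0%). In CTNNB1_NFE2L2 2 were lower and 2 higher (24.2% and 24.5%), and in NFE2L2_MET 2 and 1 (9.89% and 13.5%). In CTNNB1_NFE2L2 the 2 lower became 0 without WT replicate 1 or CTNNB1_NFE2L2 replicate 1 or 2, 1 without WT replicate 2, and 0 by total count, and the 2 higher became 1 without WT replicate 1 or 3 or CTNNB1_NFE2L2 replicate 2. In NFE2L2_MET the 2 lower became 1 without WT replicate 2 and 4 by total count. Slc25a20, which carries the carnitine esters across the inner membrane, fell to 76.3 ± 5.11 CPM in CTNNB1_NFE2L2_MET (-0.63, edgeR adjusted p = 0.000788), against 117.7 ± 11.6 CPM in WT. Cpt2, which turns them back to acyl-CoA inside, fell in CTNNB1_NFE2L2_MET (-0.56, edgeR adjusted p = 0.000884) and in NFE2L2_MET (-0.55, edgeR adjusted p = 0.00329). Acaca, whose product malonyl-CoA inhibits the Cpt1a enzyme, rose to 141 ± 5.48 CPM in NFE2L2_MET (1.02, edgeR adjusted p = 3.51e-05) and 110.5 ± 17.4 CPM in CTNNB1_MET (0.67, edgeR adjusted p = 0.00193), against 69.4 ± 10.9 CPM in WT. Mlycd, which breaks malonyl-CoA down, fell in CTNNB1_NFE2L2_MET (-0.93, edgeR adjusted p = 3.42e-05). Slc22a5, the carnitine importer, had no call that held without each library.

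Peroxisomal enzymes were lower than WT more often than higher in each model. Of 15, 7 were lower and 1 higher than WT in CTNNB1_NFE2L2_MET (all genes, 23.4% and 26.5%), and 6 and 1 in CTNNB1_MET (6.22% and 11.0%). In CTNNB1_NFE2L2 8 were lower and 4 higher (24.2% and 24.5%), and in NFE2L2_MET 6 and 1 (9.89% and 13.5%). The lower count in CTNNB1_MET fell to 1 without CTNNB1_MET replicate 1 and 3 without its replicate 2, and that in NFE2L2_MET to 3 without NFE2L2_MET replicate 2 or 3. Total-count scaling gave 4 higher in CTNNB1_NFE2L2_MET. The summed level of the 15 genes was 4153 to 5459 CPM in CTNNB1_NFE2L2_MET, 6626 to 7394 CPM in CTNNB1_MET, 5600.3 to 6297 CPM in CTNNB1_NFE2L2, 6643 to 7581 CPM in NFE2L2_MET and 9144 to 10958 CPM in WT, so that each model library lay below each WT library. Ehhadh, the peroxisomal bifunctional enzyme and a textbook PPARα target, rose in CTNNB1_NFE2L2 (1.14, edgeR adjusted p = 9.49e-05), to 476 ± 51.6 CPM against 216 ± 49.0 CPM in WT. Acaa1a, the constitutive thiolase that shares sequence with Acaa1b, fell in CTNNB1_NFE2L2_MET (-0.77, edgeR adjusted p = 1.5e-05) and in CTNNB1_NFE2L2 (-0.73, edgeR adjusted p = 2.64e-05), where Acaa1b did not pass (0.23 ± 0.257, edgeR adjusted p = 0.483). Abcd2, a peroxisomal fatty acid transporter, rose in CTNNB1_NFE2L2_MET (2.51), CTNNB1_MET (3.56) and NFE2L2_MET (1.70), and fell in CTNNB1_NFE2L2 (-1.24, edgeR adjusted p = 0.00097). Acot8, a peroxisomal thioesterase, rose in CTNNB1_NFE2L2 (0.46) and fell in NFE2L2_MET (-0.40).

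Uptake genes moved in both directions. Of 10 genes for uptake and activation, 5 were lower and 2 higher than WT in CTNNB1_NFE2L2_MET (all genes, 23.4% and 26.5%). In CTNNB1_MET 0 were lower and 2 higher (6.22% and 11.0%). In CTNNB1_NFE2L2 5 were lower and 3 higher (24.2% and 24.5%), and in NFE2L2_MET 2 and 3 (9.89% and 13.5%). In NFE2L2_MET the 3 higher became 1 without WT replicate 1 or NFE2L2_MET replicate 1 or 3, and the 2 lower became 0 or 1 without WT replicate 2 or 3 or any 1 NFE2L2_MET library. Total-count scaling there gave 6 lower and 1 higher. Cd36, a fatty acid translocase of the cell surface, rose to 42.6 ± 4.97 CPM in CTNNB1_NFE2L2_MET, 15.5 ± 1.79 CPM in CTNNB1_MET, 121.1 ± 43.5 CPM in CTNNB1_NFE2L2 and 112 ± 23.7 CPM in NFE2L2_MET, against 5.83 ± 1.40 CPM in WT. Slc27a2, a transporter and acyl-CoA synthetase of hepatocytes, fell in CTNNB1_NFE2L2_MET (-1.48, edgeR adjusted p = 3.27e-06) and CTNNB1_NFE2L2 (-1.19, edgeR adjusted p = 2.8e-05). Its relative Slc27a5 also fell in CTNNB1_NFE2L2_MET (-1.42) and CTNNB1_NFE2L2 (-0.91), as did the acyl-CoA synthetase Acsl1 (-1.03 in CTNNB1_NFE2L2_MET, -0.94 in CTNNB1_NFE2L2). Acsl5, a further synthetase, fell in CTNNB1_NFE2L2 (-0.80). Of 5 other fatty acid binding proteins, 1 was lower and 2 higher in CTNNB1_NFE2L2_MET, 0 and 1 in CTNNB1_MET, 2 and 2 in CTNNB1_NFE2L2, and 0 and 1 in NFE2L2_MET. The 2 higher in CTNNB1_NFE2L2 became 1 without WT replicate 1 or 2 or CTNNB1_NFE2L2 replicate 1. Fabp2, the intestinal form, fell in CTNNB1_NFE2L2_MET (-1.24) and CTNNB1_NFE2L2 (-1.19), while Fabp4, known from fat cells and macrophages, rose in each model, to 19.3 ± 4.83 CPM or more, against 4.63 ± 1.54 CPM in WT. Fabp5 fell in CTNNB1_NFE2L2 (-2.13), and Fabp7 rose in CTNNB1_NFE2L2_MET (1.32).

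**Figure D4:**
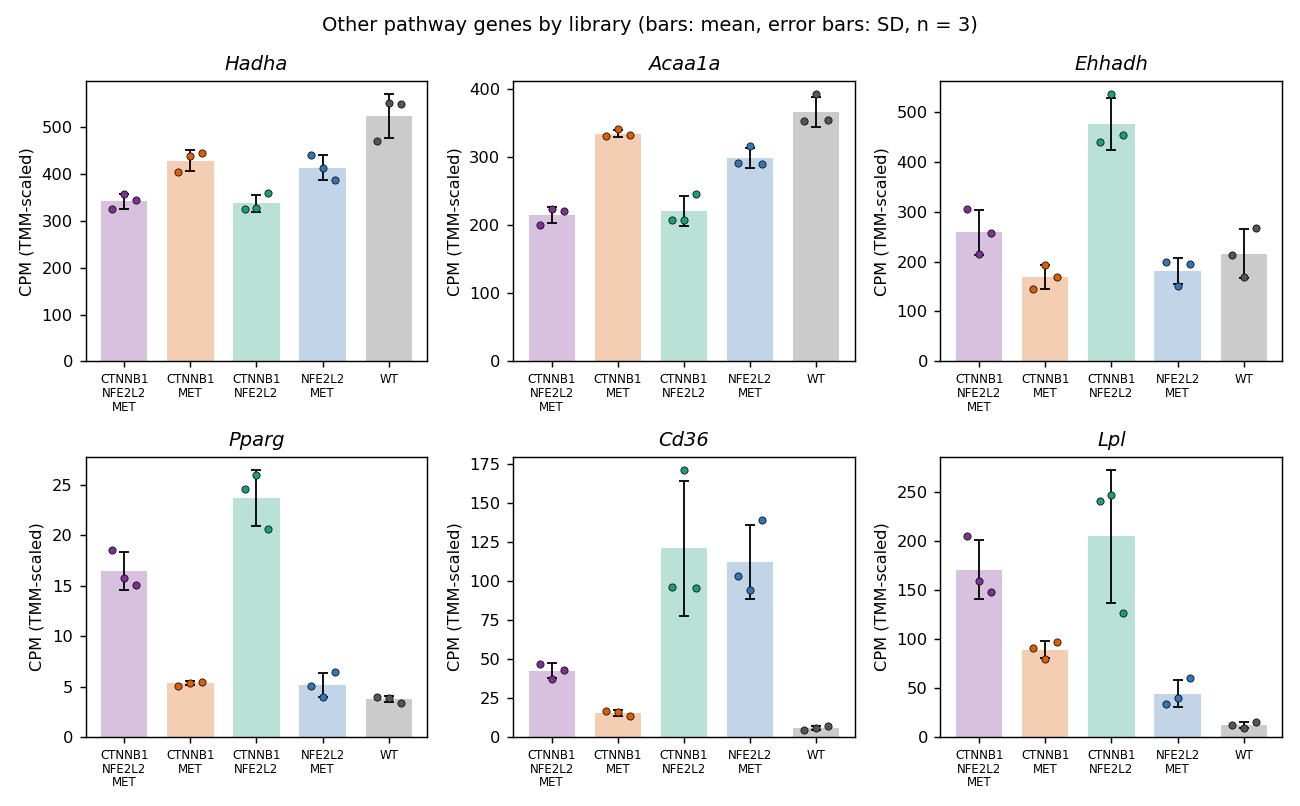
CPM (y axis, linear from 0) of 6 pathway genes outside the 9, in each of the 5 groups (x axis), with a point per library, bars for the mean and error bars for the SD of 3 libraries. Hadha and Acaa1a are lower in CTNNB1_NFE2L2_MET and CTNNB1_NFE2L2 than in WT, Ehhadh and Pparg are highest in CTNNB1_NFE2L2, and Cd36 and Lpl are lowest in WT.

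Of the 6 genes of ketone body metabolism, 1 was lower and 3 higher than WT in CTNNB1_NFE2L2_MET (all genes, 23.4% and 26.5%). In CTNNB1_MET 1 was lower and 1 higher (6.22% and 11.0%). In CTNNB1_NFE2L2 3 were lower and 0 higher (24.2% and 24.5%), and in NFE2L2_MET 1 and 0 (9.89% and 13.5%). The 3 higher in CTNNB1_NFE2L2_MET became 1 or 2 without any 1 library, with 1 left without WT replicate 3. Bdh1, which makes β-hydroxybutyrate, rose in CTNNB1_MET (0.71, edgeR adjusted p = 0.00127) and fell in CTNNB1_NFE2L2 (-0.60, edgeR adjusted p = 0.00107). Acat1, the thiolase that joins acetyl-CoA units, fell in CTNNB1_MET (-0.59) and CTNNB1_NFE2L2 (-0.95), and Slc16a1, a carrier of ketone bodies and lactate, rose in CTNNB1_NFE2L2_MET (0.65).

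Other genes described as PPARα targets did not move as a block. Of 12, 3 were higher and 3 lower than WT in CTNNB1_NFE2L2_MET (all genes, 26.5% and 23.4%), and 5 and 0 in CTNNB1_MET (11.0% and 6.22%). In CTNNB1_NFE2L2 5 were higher and 2 lower (24.5% and 24.2%), and in NFE2L2_MET 3 and 1 (13.5% and 9.89%). Vnn1, a pantetheinase, rose in each model, to 34.3 ± 7.96 CPM in CTNNB1_NFE2L2_MET, 21.5 ± 5.25 CPM in CTNNB1_MET, 8.70 ± 2.69 CPM in CTNNB1_NFE2L2 and 14.1 ± 1.30 CPM in NFE2L2_MET, against 2.35 ± 1.85 CPM in WT. Lpl, lipoprotein lipase, also rose in each, to 171 ± 30.1 CPM in CTNNB1_NFE2L2_MET, 89.3 ± 8.70 CPM in CTNNB1_MET, 205 ± 67.8 CPM in CTNNB1_NFE2L2 and 44.5 ± 13.9 CPM in NFE2L2_MET, against 12.2 ± 2.94 CPM in WT. G0s2, an inhibitor of fat breakdown, fell in CTNNB1_NFE2L2_MET (-1.75, edgeR adjusted p = 8.14e-05) and CTNNB1_NFE2L2 (-1.99, edgeR adjusted p = 3.57e-05) and rose in CTNNB1_MET (1.03, edgeR adjusted p = 0.0118). Ucp2, a mitochondrial carrier, rose in CTNNB1_NFE2L2_MET (1.95), CTNNB1_MET (0.75), CTNNB1_NFE2L2 (2.20) and NFE2L2_MET (1.22), and Pnpla2, the first lipase of stored fat, rose in CTNNB1_NFE2L2 (1.22). Angptl4, a secreted inhibitor of lipoprotein lipase, fell in CTNNB1_NFE2L2_MET (-1.09), at 107 ± 20.9 CPM against 228 ± 100.7 CPM in WT. Plin2, a lipid droplet protein, did not pass in any model and averaged 522 ± 31.3 CPM in CTNNB1_NFE2L2_MET, 546 ± 48.2 CPM in CTNNB1_MET, 386 ± 88.1 CPM in CTNNB1_NFE2L2, 443 ± 128 CPM in NFE2L2_MET and 427 ± 19.9 CPM in WT. The microsomal targets Cyp4a10 and Cyp4a14 spread too widely to pass in any model against WT (edgeR adjusted p at least 0.0819), with Cyp4a14 at 11.9 ± 14.3 CPM in CTNNB1_NFE2L2_MET and 12.8 ± 9.69 CPM in WT. Of the 7 microsomal genes, 3 were lower and 0 higher than WT in CTNNB1_NFE2L2_MET, 1 lower and 1 higher in CTNNB1_MET, 2 lower and 2 higher in CTNNB1_NFE2L2, and 2 lower and 0 higher in NFE2L2_MET. In CTNNB1_NFE2L2 the 2 lower became 0 without WT replicate 3, CTNNB1_NFE2L2 replicate 2 or the added libraries, and 1 without WT replicate 2 or CTNNB1_NFE2L2 replicate 1. In NFE2L2_MET the 2 lower became 4 without NFE2L2_MET replicate 1, and 1 without its replicate 2 or 3 or WT replicate 1 or 3. Among the microsomal genes, Aldh3a2, a fatty aldehyde dehydrogenase, rose in CTNNB1_NFE2L2 (1.37). Cyp4a31 rose in CTNNB1_MET (2.49), Cyp4a12a fell in CTNNB1_NFE2L2_MET (-1.36) and Cyp4a12b rose in CTNNB1_NFE2L2 (3.90) and fell in CTNNB1_NFE2L2_MET (-1.61), but the Cyp4a genes are near-identical copies between which reads can be split, so these values are uncertain.

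**Figure D5:**
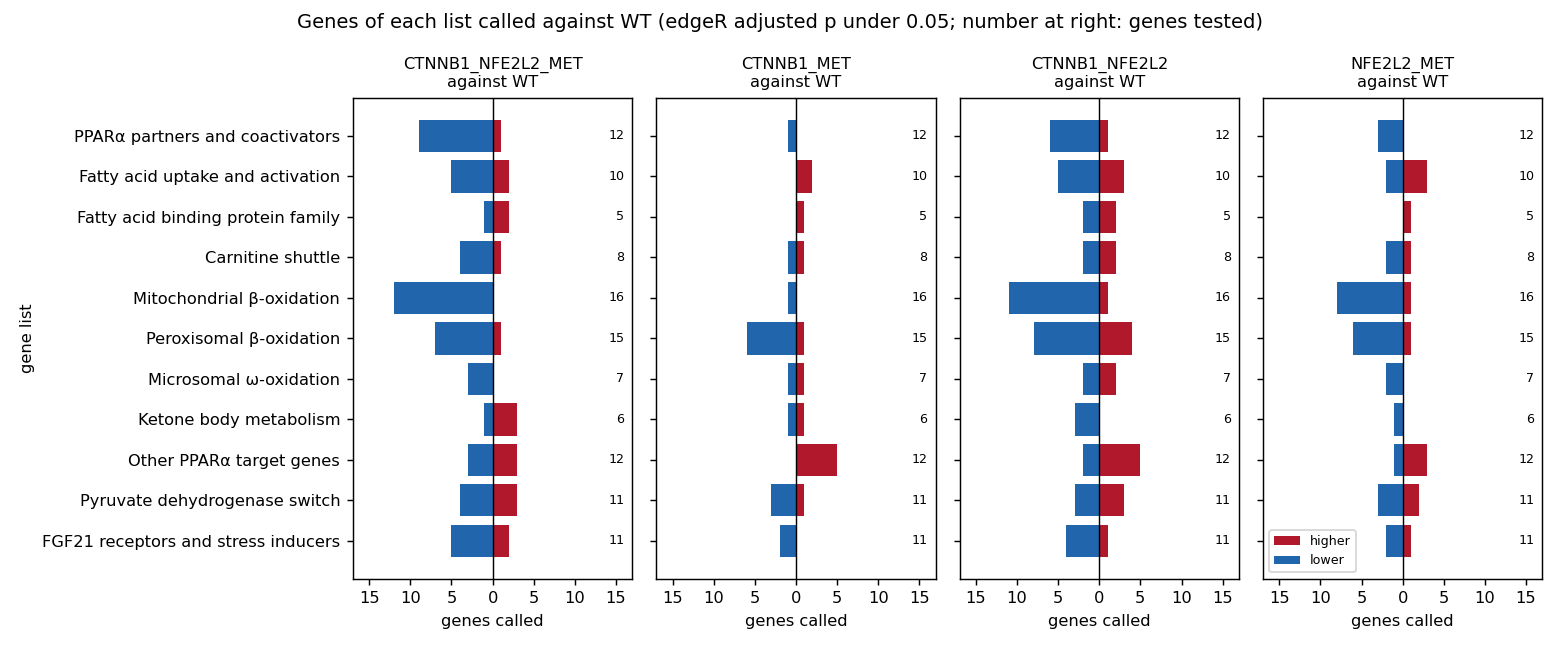
Number of genes of each list (rows) called against WT in the 4 models (panels), with lower genes to the left in blue and higher genes to the right in red, and the number of genes tested at the right edge of each panel. Mitochondrial β-oxidation has 12 lower genes of 16 in CTNNB1_NFE2L2_MET and 1 in CTNNB1_MET. Of all genes, 23.4% were lower in CTNNB1_NFE2L2_MET and 6.22% in CTNNB1_MET.

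Around Pdk4, the pyruvate dehydrogenase switch held 11 further genes. In CTNNB1_NFE2L2_MET 3 were higher and 4 lower than WT (all genes, 26.5% and 23.4%), and in CTNNB1_MET 1 and 3 (11.0% and 6.22%). In CTNNB1_NFE2L2 3 were higher and 3 lower (24.5% and 24.2%), and in NFE2L2_MET 2 and 3 (13.5% and 9.89%). The 3 lower in CTNNB1_MET became 0 to 2 without any 1 library, with 0 left without WT replicate 2 or CTNNB1_MET replicate 1. In CTNNB1_NFE2L2 the 3 lower became 1 without CTNNB1_NFE2L2 replicate 1 or 2 and by total count. In NFE2L2_MET the 2 higher became 0 without WT replicate 2 or NFE2L2_MET replicate 1 or 3 and by total count, and 1 without WT replicate 1 or NFE2L2_MET replicate 2. Pdk1, a related kinase, fell where Pdk4 rose most, in CTNNB1_NFE2L2 (-1.18, edgeR adjusted p = 9.29e-06) and CTNNB1_NFE2L2_MET (-1.05, edgeR adjusted p = 2.43e-05). Pdp1, a phosphatase that reverses the kinases, rose in CTNNB1_NFE2L2_MET (2.58, edgeR adjusted p = 3.93e-07), to 12.03 ± 2.78 CPM against 2.01 ± 0.301 CPM in WT. Pdha1, a catalytic subunit of the complex, rose in CTNNB1_NFE2L2_MET (0.64) and CTNNB1_NFE2L2 (0.65), and Mpc1, a subunit of the mitochondrial pyruvate carrier, rose in CTNNB1_NFE2L2 (0.88).

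Among 11 receptors of FGF21 and stress genes, 2 were higher and 5 lower than WT in CTNNB1_NFE2L2_MET (all genes, 26.5% and 23.4%). In CTNNB1_MET 0 were higher and 2 lower (11.0% and 6.22%). In CTNNB1_NFE2L2 1 was higher and 4 lower (24.5% and 24.2%), and in NFE2L2_MET 1 and 2 (13.5% and 9.89%). The 2 lower became 1 without WT replicate 2 or CTNNB1_MET replicate 1 or 2 in CTNNB1_MET, and without any 1 library but NFE2L2_MET replicate 2 in NFE2L2_MET. Klb, the coreceptor of FGF21, fell in CTNNB1_NFE2L2_MET (-0.92, edgeR adjusted p = 0.00105), to 15.3 ± 1.05 CPM against 29.0 ± 1.67 CPM in WT. Fgfr4, the main FGF receptor of hepatocytes, fell in each model, by 1.57 on the log2 scale in CTNNB1_NFE2L2_MET, by 0.60 in CTNNB1_MET, by 0.98 in CTNNB1_NFE2L2 and by 0.83 in NFE2L2_MET. Fgfr2 fell in CTNNB1_NFE2L2_MET (-1.96) and CTNNB1_NFE2L2 (-2.51). Atf3, a stress-induced transcription factor, rose in CTNNB1_NFE2L2_MET (3.37) and CTNNB1_NFE2L2 (4.49). Asns, a target of the amino acid stress response, rose in CTNNB1_NFE2L2_MET (3.76, edgeR adjusted p = 8.55e-06), to 43.5 ± 22.2 CPM, and stood at 4.87 ± 1.74 CPM in CTNNB1_MET, 2.87 ± 1.18 CPM in CTNNB1_NFE2L2, 7.94 ± 0.475 CPM in NFE2L2_MET and 3.20 ± 1.21 CPM in WT. The NFE2L2_MET call (1.31, edgeR adjusted p = 0.039) was lost when any 1 library was left out.

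Fasting and feeding genes were measured because the feeding state at harvest is not given. Of 11, 5 were lower and 2 higher than WT in CTNNB1_NFE2L2_MET (all genes, 23.4% and 26.5%), and 0 and 2 in CTNNB1_MET (6.22% and 11.0%). In CTNNB1_NFE2L2 4 were lower and 2 higher (24.2% and 24.5%), and in NFE2L2_MET 1 and 1 (9.89% and 13.5%). The 2 higher in CTNNB1_NFE2L2 became 0 without WT replicate 1, and 1 without WT replicate 2 or 3 or CTNNB1_NFE2L2 replicate 1. Srebf1, which insulin raises after a meal, fell in CTNNB1_NFE2L2_MET (-1.43) and CTNNB1_NFE2L2 (-2.03). Elovl6, a fatty acid elongase, fell in CTNNB1_NFE2L2 (-1.04), and Pnpla3, which feeding also raises, rose in CTNNB1_NFE2L2_MET (2.11), CTNNB1_MET (2.98) and NFE2L2_MET (3.63). The part of feeding in the levels of the 9 genes was not tested.

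For each of the 9 genes, the 3 genes with the most similar profile were found among 8736 genes of sufficient level, by the root mean square distance of log2 CPM over the 15 libraries, each profile centred on its own mean. Ppara was nearest to Chd7, at a distance of 0.169 on the log2 scale, and then to 1600002H07Rik, at 0.174, beside 0.545 for the spread of Ppara around its own mean. Fabp1 was nearest to Hykk, Ces3a and Arhgap26, at 0.231 to 0.274 beside a spread of 0.910. Acaa2 was nearest to Zfp629, Pgpep1 and Acaa1a, at 0.0982 to 0.133 beside 0.369. Cpt1a was nearest to Cutc, Sox13 and D2Wsu81e, Acadm to Erbb2ip, Suclg2 and Gpr108, and Acadl to Txndc5, Dhrs1 and Srsf9. Acaa1b was nearest to Aldh4a1, Abcb11 and Acot7, at 0.235 to 0.279 beside 0.556. Pdk4 was nearest to Pcp4l1, Stmn1 and Slc1a2, at distances of 0.634 to 0.674 beside 1.61, and Fgf21 to Csf2rb, Mpeg1 and 2010003K11Rik, at 0.431 to 0.498 beside 1.05. No member was among the 3 nearest genes of another. The profiles share the 15 libraries and their group structure, so likeness is a description.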

How the data were processed

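PolyA RNA of 15 mouse liver samples was sequenced, per the labels, in 5 groups of 3. The deposited files hold raw gene counts that the authors made from Illumina reads. The submitters' processing notes name Trimmomatic, STAR and mm10, with versions not given in the sources used here. The unstranded count column was used, since the single-strand columns each held close to equal shares. The 4 lines of each file that name no gene stayed out of totals and tests, and the unmapped line among them took 8.69 to 25.9% of reads.

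Counts of 24411 symbols were filtered with filterByExpr to 14098 genes, scaled by TMM and fitted over all 15 libraries with edgeR 4.0.16's quasi-likelihood test in R 4.3.3. The p-values were adjusted by Benjamini and Hochberg over all genes tested, and calls are at 0.05. In simulated counts for CTNNB1_MET over WT, the test called 80 of 100 genes altered 2-fold, 97 of 100 altered 4-fold and 6 of 13687 unaltered. The simulation altered far fewer genes than were called in the data and had no unmapped share that followed the groups. It does not give the share of real differences that were found. The library totals, 14084343 to 20702618 gene counts, set the counting precision. Alternatives were RLE and total-count scaling, no filter, summed strand columns, DESeq2 1.42.0, the 2 groups alone, a term for or removal of the 3 libraries marked as added, a term for the unmapped share, and leaving out each library. The 3 added libraries are replicate 3 of CTNNB1_NFE2L2_MET, CTNNB1_MET and WT. Counts of list genes and the named pathway genes under these settings were added after seeing the data.

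The 9 genes and all lists were chosen with earlier results of these data known. Named beside them are, per list, up to 4 genes with the smallest p over the groups and a fixed set of known pathway genes; Alb was named after its values were seen. Some genes that these rules select are not reported here. Promoters are RefSeq windows of GRCm38.p6.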

Additional observations from a re-analysis of the deposited data

How the results depend on the processing

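No paired analysis was possible because replicates were numbered in accession order only. The number of members called moved by over 1.5 times as follows. With a term for the unmapped share it was 0 in CTNNB1_NFE2L2_MET, CTNNB1_MET, CTNNB1_NFE2L2 and NFE2L2_MET over WT, 2 in CTNNB1_NFE2L2_MET over NFE2L2_MET, 1 in CTNNB1_NFE2L2_MET over CTNNB1_MET, 1 in CTNNB1_MET over NFE2L2_MET and 3 in CTNNB1_MET over CTNNB1_NFE2L2. DESeq2 called 3 in CTNNB1_MET over WT and 8 in CTNNB1_NFE2L2 over NFE2L2_MET. With no filter on low counts it was 0 in CTNNB1_MET over WT, 1 in CTNNB1_NFE2L2_MET over CTNNB1_NFE2L2 and 3 in CTNNB1_MET over NFE2L2_MET. It was 0 in CTNNB1_MET over WT with the 2 groups alone, 3 in CTNNB1_NFE2L2_MET over NFE2L2_MET by total count, and 3 in CTNNB1_MET over NFE2L2_MET without the added libraries. Leaving out 1 library gave 0 to 1 in CTNNB1_MET over WT, 1 to 3 in CTNNB1_NFE2L2_MET over CTNNB1_NFE2L2 and 2 in CTNNB1_MET over NFE2L2_MET. The causes were not tested.

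Signs turned mostly for values near 0. With the unmapped term, Fgf21 was -0.19 in CTNNB1_NFE2L2_MET over WT, -1.17 in CTNNB1_NFE2L2 over WT, -0.72 in CTNNB1_NFE2L2_MET over NFE2L2_MET, -0.33 in CTNNB1_NFE2L2_MET over CTNNB1_MET, and 1.31 in CTNNB1_MET over CTNNB1_NFE2L2. With it Acadm was -0.11 in CTNNB1_NFE2L2_MET and -0.0074 in NFE2L2_MET over WT, Ppara 0.23 in CTNNB1_MET over WT, 0.30 in NFE2L2_MET over WT and -0.070 in CTNNB1_MET over NFE2L2_MET. Acadl was -0.049 and Fabp1 0.38 in CTNNB1_MET over WT, Acaa2 0.072 in NFE2L2_MET over WT, and Acaa1b 0.050 in CTNNB1_NFE2L2_MET over NFE2L2_MET. By total count Acadl was 0.20 in CTNNB1_NFE2L2_MET over WT and 0.19 over CTNNB1_MET, and Acadm -0.012 in NFE2L2_MET over WT. By total count in CTNNB1_NFE2L2_MET over NFE2L2_MET, Acadm was 0.30, Acaa2 0.012 and Acaa1b 0.20. Without the added libraries Ppara was 0.020 and Cpt1a -0.033 in CTNNB1_MET over WT, and Pdk4 0.27 in NFE2L2_MET over WT. A term for those libraries gave 0.069 for Fgf21 in CTNNB1_MET over CTNNB1_NFE2L2.

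Leaving out 1 library turned signs within these ranges. Against WT they were -0.11 to 0.019 for Acadl and -0.065 to 0.18 for Acadm in CTNNB1_NFE2L2_MET. They were -0.034 to 0.085 for Acadl and -0.27 to 0.013 for Ppara in CTNNB1_MET. In NFE2L2_MET they were -0.00057 to 0.24 for Acadm, -0.11 to 0.048 for Cpt1a and -1.08 to 0.27 for Pdk4. In CTNNB1_NFE2L2_MET over NFE2L2_MET they were -0.42 to 0.18 for Acaa1b, -0.11 to 0.00065 for Acadm and -0.46 to 0.41 for Fgf21. In CTNNB1_NFE2L2_MET over CTNNB1_NFE2L2 they were -0.010 to 0.19 for Acaa2 and -0.30 to 0.11 for Fabp1. Fgf21 ran from -0.35 to 0.40 in CTNNB1_MET over CTNNB1_NFE2L2. Under total-count scaling the median of all genes was -0.18 to 0.38 over the 10 comparisons, against -0.019 to 0.031 by TMM, and the share of calls that were higher was 88.5% in CTNNB1_NFE2L2_MET over NFE2L2_MET, against 53.5% by TMM. Pdk4 had 21 to 1110 counts per library and Fgf21 24 to 452, the fewest of the 9 genes.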
